A study of Mus musculus with 27 samples.

Results

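The 10 genes Xirp1, Xirp2, Nrap, Des, Gja1, Gja5, Cdh2, Dsp, Pkp2 and Jup encode proteins of the intercalated disc and its gap junctions, the structure that joins heart muscle cells end to end. They were chosen by name, for that place in the cell. Their Ensembl identifiers were matched to symbols in the count table, and all 10 were found among the 35145 genes with at least 1 count (55487 genes in the table). All 10 passed the filter on low counts in every comparison.

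RNA sequencing had been done on mouse ventricles in 27 libraries of 7 groups, which differ in age and in the dose of MBNL1, a splicing regulator that binds RNA and also affects its stability. Of the adult libraries (postnatal day 60), 5 are labelled KO (MBNL1 loss of function) and 4 are controls (Ctl) taken 7 days after knockout, and a further 4 labelled KO with 3 controls were taken 14 days after it. The young hearts gave 4 libraries labelled Tg (MBNL1 gain of function) with 3 controls from day 7, and 4 controls from day 1. How the knockout was induced, which part of the gene was deleted, the promoter and cell type of the transgene, the alleles that controls carry, the strain and the sex are not given in the sources used here. Whether each library came from its own animal is not stated either, so the p-values cover the spread among libraries, part of which may be technical.

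At the disc, the adherens junction ties the actin filaments of neighbouring cells together through N-cadherin (Cdh2) and the catenins, and the desmosome ties their intermediate filaments together through desmosomal cadherins, plakoglobin (Jup), plakophilin 2 (Pkp2) and desmoplakin (Dsp). Desmin (Des) is the intermediate filament of muscle, which desmoplakin anchors at the disc. Connexin 43 (Gja1) forms the channels that carry current between working ventricular cells, and connexin 40 (Gja5) those of the atria, the conduction system and arterial endothelium. Xirp1 and Xirp2 (the Xin proteins) and Nrap bind actin at the disc and are known from the growing ends of myofibrils. In the newborn heart these junctions lie along the whole cell surface, and they gather at the cell ends during the weeks after birth.

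Of the 10 genes, 4 differed between Tg and control ventricles at postnatal day 7, as described further on, namely Xirp2, Des, Nrap and Gja5. The 250 bases before the RefSeq start of these 4 genes (GRCm38.p6, read 5′ to 3′ on the strand of the gene) are shown because they belong to the genes called in the Tg ventricles. The table of promoters held an entry for 7 of the 10 genes. Capitals mark matches on either strand to 4 motifs of muscle genes that were chosen after the values were seen, namely the MEF2 consensus, the CArG box, the E-box (CANNTG) and the M-CAT motif (CATTCC). The Xirp2 stretch is chr2:67445752-67446001 on the plus strand, that of Des is chr1:75360042-75360291 on the plus strand, that of Nrap is chr19:56390039-56390288 on the minus strand, and that of Gja5 is chr3:97032152-97032401 on the plus strand. The Gja5 stretch lies inside the gene as annotated in GENCODE, which begins at 96904693, and the bases before that start were not searched. For Des the GENCODE start, 75360329, lies a little after the RefSeq start.
Xirp2: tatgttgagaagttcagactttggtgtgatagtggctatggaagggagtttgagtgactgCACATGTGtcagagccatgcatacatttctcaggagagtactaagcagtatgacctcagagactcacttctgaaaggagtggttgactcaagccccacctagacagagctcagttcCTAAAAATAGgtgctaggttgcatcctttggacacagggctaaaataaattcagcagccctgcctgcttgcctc
Des: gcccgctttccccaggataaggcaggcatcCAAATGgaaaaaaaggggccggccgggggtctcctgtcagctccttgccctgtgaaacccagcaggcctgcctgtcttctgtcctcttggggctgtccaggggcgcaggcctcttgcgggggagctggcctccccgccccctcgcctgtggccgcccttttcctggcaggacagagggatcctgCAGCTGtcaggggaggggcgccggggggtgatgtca
Nrap: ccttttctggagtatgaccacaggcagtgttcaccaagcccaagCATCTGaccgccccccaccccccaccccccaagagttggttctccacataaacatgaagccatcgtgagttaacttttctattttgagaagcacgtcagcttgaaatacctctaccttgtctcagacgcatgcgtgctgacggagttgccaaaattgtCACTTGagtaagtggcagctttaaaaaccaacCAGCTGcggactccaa
Gja5: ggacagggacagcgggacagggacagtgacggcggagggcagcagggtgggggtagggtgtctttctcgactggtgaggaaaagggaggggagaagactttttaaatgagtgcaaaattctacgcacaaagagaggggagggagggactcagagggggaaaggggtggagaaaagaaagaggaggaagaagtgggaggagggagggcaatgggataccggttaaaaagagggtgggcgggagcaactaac

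The MEF2 consensus was found in the Xirp2 stretch, at -74 to -65 from the start, where 2.92% of the 32851 promoters of the table hold it. Xirp2 also held a pair of overlapping E-boxes that begin at -190 and -188, Des held E-boxes that begin at -220 and -36, and Nrap held E-boxes that begin at -206, -48 and -16. E-boxes are common, with a match in 66.2% of all promoters. None of the 4 motifs was matched in the Gja5 stretch, and the CArG box and the M-CAT motif, which 1.47% and 12.6% of all promoters hold, were not matched in any of the 4. A match is a string of letters and not a site known to be bound.

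Total counts ran from 21929347 to 25675115 per library, so that the least abundant of the 10 genes, Gja5, still had at least 120 counts in each. Levels are given as CPM, counts relative to the size of the library, after TMM scaling over all 27 libraries. Myl2, the ventricular myosin light chain, stood at 2254 to 8528 CPM and Myl7, its atrial counterpart, at 6.29 to 140.0 CPM, so the tissue label holds in every library. The level of Myl7 varied, and which cells it came from was not tested. Mbnl1 itself stood at 103.1 to 219 CPM in the libraries labelled KO at 7 days, against 145 to 152 in their controls, and at 117 to 139 CPM at 14 days, against 152 to 169. At 7 days libraries 2 and 4 labelled KO lay below all their controls, with 103.1 and 116.4 CPM. Libraries 1, 3 and 5 lay above all of them, with 218.6, 167.5 and 166.3 CPM. As a group, the total of Mbnl1 thus does not bear out the label KO at 7 days, where it was not called (0.05 ± 0.20, adjusted p = 0.86). At 14 days Mbnl1 was called lower (-0.34 ± 0.09, edgeR adjusted p = 0.012). Where the deleted part lies is not given, so a total over all exons is a weak check, and every direction below is that of the libraries so labelled. Esr1, the estrogen receptor gene, stood at 193 to 1983 CPM in the libraries labelled KO, against 0.48 to 1.49 in the day 60 controls. Esr1 was lowest in libraries 1 and 5 labelled KO of 7 days, with 234 and 193 CPM, followed by library 3 with 651 CPM. Mbnl1 stood at 2927 to 4079 CPM in Tg libraries and at 96.9 to 104 in their controls. The libraries labelled KO also differed in markers of cell types. Of 15 cardiomyocyte markers, 13 were lower and 0 higher at 7 days, with a summed level of 30099 to 61695 CPM in libraries labelled KO and 104943 to 112212 in controls. At 14 days, 12 were lower and 1 higher, with 63052 to 74668 CPM against 108264 to 115000. Of 10 markers of activated fibroblasts, 9 were higher at either time (2778 to 5562 CPM against 408 to 479 at 7 days, and 2533 to 3479 against 403 to 624 at 14 days). Of 10 macrophage markers, 9 were higher at 7 days (1303 to 1804 CPM against 514 to 605) and 8 at 14 days (828 to 1209 CPM against 423 to 650). None of these markers was at 0 in all libraries of a group. In whole tissue, fewer cells of a type and less RNA per cell cannot be told apart, and the part of these shifts in the results that follow was not tested.

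The scale matters for several of the genes. With total count scaling in place of TMM, the median log2 fold change of all genes lay at 0.45 at 7 days and 0.39 at 14 days after knockout, and at -0.65 for day 60 against day 7 and -0.71 for day 60 against day 1, where TMM puts it within 0.05 of 0. Each of the 10 genes lay on the same side of that median under both scalings in all 7 comparisons. This was largely fixed in advance, because a change of scaling shifts all genes of a comparison by nearly the same amount. Distances from that median, as given below, therefore add no support to a call that was lost with total count scaling. Falls and rises with TMM are therefore relative to the bulk of genes.

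**Figure D1:**
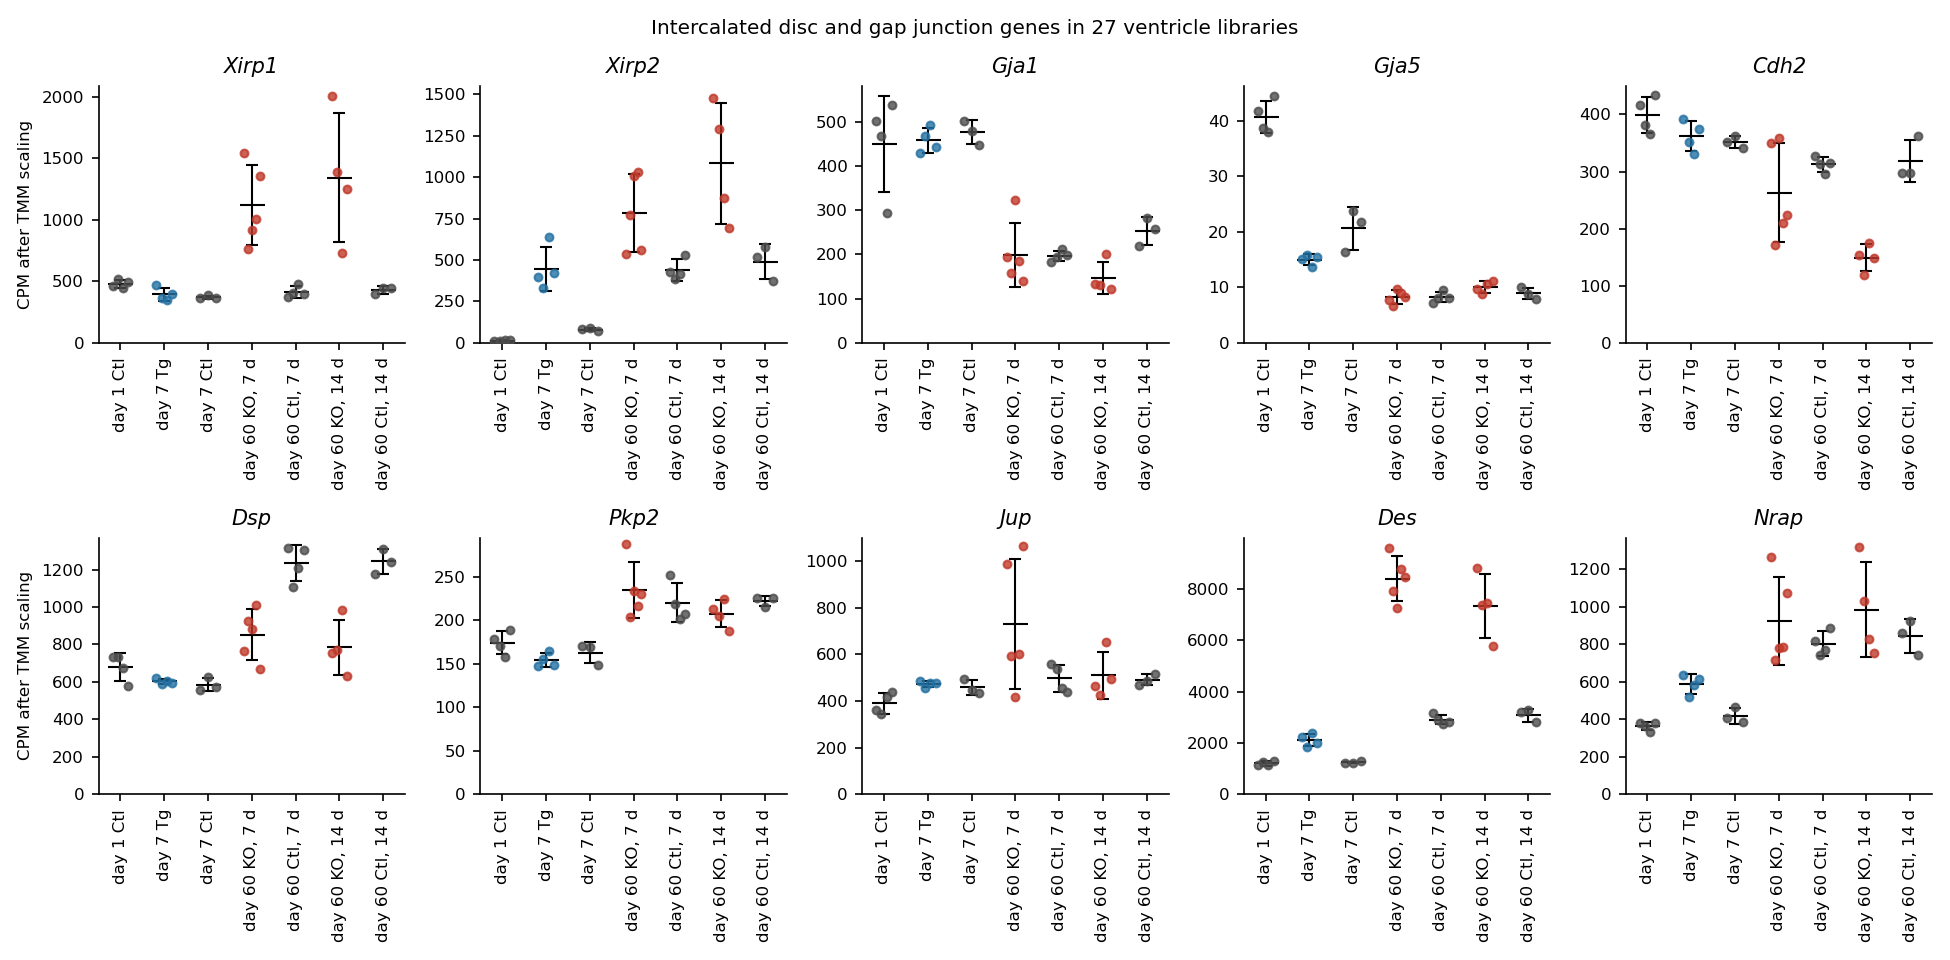
CPM after TMM scaling (linear axes from 0) of each of the 10 genes in each of the 27 libraries, with the mean and SD of the group; groups run from postnatal day 1 to day 60, with Tg (blue) and KO (red) left of their controls (grey). Xirp1, Xirp2 and Des are higher in KO than in control ventricles at both times, Xirp2 runs from 9.3 CPM at day 1 to 578 in the day 60 controls, and Gja5 runs the other way.

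After knockout, the muscle scaffold genes Xirp1, Xirp2 and Des rose at both times, and the desmosomal linker Dsp fell at both. At 14 days the channel gene Gja1 and the cadherin gene Cdh2 were lower as well. Gja5, Pkp2, Jup and Nrap were not called at either time. Calls rest on the edgeR quasi-likelihood test, with Benjamini-Hochberg adjustment over all genes tested and a threshold of 0.05. At 7 days, 3 of the 10 genes were higher, where 26.4% of all 15167 genes were, and 1 was lower, where 24.3% were. At 14 days, 3 were higher and 3 lower, where 21.8% and 22.4% of 14976 genes were. Under total count scaling the counts were 7 higher and 0 lower at 7 days, and 7 higher and 1 lower at 14 days. Over all genes that scaling gave 8065 higher and 1588 lower of 15167 at 7 days, and 7288 and 1610 of 14976 at 14 days. The TMM counts are thus close to those of genes at large, and the results lie in which genes moved and by how much. The median log2 fold change of the 10 genes was 0.13 at 7 days and 0.08 at 14 days, against 0.03 and 0.01 over all genes.

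Xirp1 (ENSMUSG00000079243, chromosome 9, 120013755 to 120023598 on the minus strand of GRCm38) stood at 1547, 763, 917, 1011 and 1357 CPM in libraries 1 to 5 labelled KO at 7 days, against 369, 406, 477 and 399 in controls 1 to 4. At 14 days it stood at 2006, 1391, 733 and 1248 CPM in libraries 6 to 9 labelled KO, against 395, 446 and 449 in controls 5 to 7. Every library labelled KO lay above every control at both times, and the libraries labelled KO varied among themselves more than the controls did, with the highest in libraries 1 and 6 and the lowest in library 8. Xirp1 rose by 1.43 ± 0.21 (SE) on the log2 scale after 7 days (2.69-fold, adjusted p = 0.00029) and by 1.61 ± 0.27 after 14 days (3.06-fold, adjusted p = 0.00077). At 7 days it was 1.11 ± 0.12 without libraries 1 and 5 labelled KO.

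Xirp2 (ENSMUSG00000027022, chromosome 2, 67446002 to 67526614 on the plus strand) also rose. It stood at 536, 773, 1006, 1030 and 560 CPM in the libraries labelled KO of 7 days, against 426, 384, 417 and 533 in controls, and at 1477, 1292, 874 and 690 CPM in those of 14 days, against 520, 578 and 371. The groups did not overlap at either time, but at 7 days library 1 labelled KO was only just above the highest control. Libraries 1 and 5 labelled KO, which had the highest Xirp1 of their group, had the lowest Xirp2. At 7 days the log2 fold change was 0.81 ± 0.21 (adjusted p = 0.0086), and 1.08 ± 0.13 without libraries 1 and 5. At 14 days it was 1.11 ± 0.25 (adjusted p = 0.0050).

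Nrap (ENSMUSG00000049134, chromosome 19, 56320035 to 56390037 on the minus strand), an actin-binding scaffold of the disc and of growing myofibrils, stood at 1266, 716, 777, 784 and 1070 CPM in the libraries labelled KO of 7 days, against 816, 741, 767 and 889 in controls. At 14 days it stood at 1319, 1030 and 825 CPM in libraries 6, 7 and 8 labelled KO and at 755 in library 9, against 858, 923 and 743 in controls. The groups overlapped, and the libraries labelled KO above all controls were 1 and 5 at 7 days and 6 and 7 at 14 days. With a log2 fold change of 0.19 ± 0.18, Nrap was not called at 7 days (adjusted p = 0.40, and -0.09 ± 0.09 without libraries 1 and 5). At 14 days it was 0.19 ± 0.17 (adjusted p = 0.41). With total count scaling Nrap was called higher at both times, by 0.61 and 0.56, which is 0.16 and 0.17 above the median of all genes. Exons of Nrap share 268 bases with those of Habp2 on the other strand, which had 54 to 227 counts per library, and the strand setting of the counting is not given.

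Des (ENSMUSG00000026208, chromosome 1, 75360329 to 75368579 on the plus strand) was the most abundant of the 10 genes. It stood at 9575, 7912, 7258, 8784 and 8460 CPM in the libraries labelled KO of 7 days, against 3179, 2896, 2750 and 2817 in controls. At 14 days it stood at 8804, 7359, 7461 and 5757 CPM, against 3190, 3264 and 2797. Every library labelled KO held well over the highest control. It rose by 1.51 ± 0.12 on the log2 scale at 7 days (2.85-fold, adjusted p = 1e-05) and by 1.22 ± 0.14 at 14 days (2.33-fold, adjusted p = 6.5e-05). Leaving out any library kept it between 1.47 and 1.57 at 7 days and between 1.14 and 1.32 at 14 days. This rise ran against the cardiomyocyte markers given above, 13 of 15 of which were lower at 7 days.

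Among the connexins, Gja1 (ENSMUSG00000050953, chromosome 10, 56377330 to 56402513 on the plus strand) stood at 195, 157, 323, 185 and 139 CPM in the libraries labelled KO of 7 days, against 183, 193, 212 and 200 in controls. Library 3 lay above all 4 controls and libraries 2 and 5 lay below them, and the log2 fold change was 0.00 ± 0.21 (adjusted p = 0.99), or -0.23 without library 3 (adjusted p = 0.12). At 14 days Gja1 stood at 133, 130, 201 and 123 CPM in libraries labelled KO, against 220, 283 and 257 in controls. All 4 lay below the controls, with library 8 the nearest to them. The log2 fold change was -0.82 ± 0.17 (0.567-fold, adjusted p = 0.0031) and -1.01 without library 8. With total count scaling it was -0.44 and not called (adjusted p = 0.054), which is 0.83 below the median of all genes.

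Gja5 (ENSMUSG00000057123, chromosome 3, 96904693 to 97077416 on the plus strand) was low in the adult ventricle, with 6.6 to 9.7 CPM in libraries labelled KO at 7 days and 7.2 to 9.6 in controls, and with 8.9 to 11.2 CPM at 14 days and 7.97 to 9.98 in controls. The log2 fold changes were -0.01 ± 0.14 (adjusted p = 0.94) and 0.15 ± 0.14 (adjusted p = 0.41). With total count scaling they were 0.41 and 0.53 and called, which is 0.04 below and 0.14 above the median of all genes. Exons of Gja5 share 165 bases with Gpr89 on the other strand, which had 292 to 442 counts per library where Gja5 had 120 to 1353, so its values are uncertain.

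Cdh2 (ENSMUSG00000024304, chromosome 18, 16588877 to 16809246 on the minus strand) stood at 351, 171, 360, 209 and 223 CPM in the libraries labelled KO of 7 days, against 328, 313, 295 and 315 in controls. Libraries 1 and 3 lay above all controls and libraries 2, 4 and 5 below them, and the log2 fold change was -0.27 ± 0.21 (adjusted p = 0.31). At 14 days Cdh2 stood at 154, 118, 175 and 148 CPM in libraries labelled KO, against 297, 297 and 362 in controls. The groups lay far apart, with a log2 fold change of -1.13 ± 0.13 (0.457-fold, adjusted p = 7.7e-05), the largest fall among the 10 genes at 14 days. It stayed called with total count scaling, at -0.76.

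In the desmosome, Dsp (ENSMUSG00000054889, chromosome 13, 38151294 to 38198577 on the plus strand) stood at 764, 927, 884, 1012 and 669 CPM in the libraries labelled KO of 7 days, against 1317, 1108, 1210 and 1305 in controls. At 14 days it stood at 752, 769, 986 and 633 CPM, against 1179, 1312 and 1239. Every library labelled KO lay below every control at both times. Dsp was lower by a log2 fold change of -0.55 ± 0.13 after 7 days (adjusted p = 0.0044) and -0.69 ± 0.13 after 14 days (adjusted p = 0.0020). With total count scaling it was -0.13 and -0.32 and not called (adjusted p = 0.40 and 0.07), which is 0.58 and 0.71 below the median of all genes.

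Jup (ENSMUSG00000001552, chromosome 11, 100368958 to 100397763 on the minus strand), shared by desmosome and adherens junction, stood at 985, 594, 417, 600 and 1065 CPM in the libraries labelled KO of 7 days, against 558, 537, 458 and 438 in controls. Libraries 1 and 5 stood far above the controls, libraries 2 and 4 a little above all of them, and library 3 below them. The log2 fold change was 0.54 ± 0.26 (adjusted p = 0.10), 0.10 ± 0.14 without libraries 1 and 5, and 0.70 without library 3, where it was called (adjusted p = 0.021). In the fit of all 27 libraries it was called at 0.55 (adjusted p = 0.014). At 14 days Jup stood at 465, 424, 654 and 496 CPM, against 471, 488 and 517, with a log2 fold change of 0.02 ± 0.14 (adjusted p = 0.92). Pkp2 (ENSMUSG00000041957, chromosome 16, 16213318 to 16272712 on the plus strand), which links the desmosomal cadherins to desmoplakin, averaged 235 ± 32.4 CPM in libraries labelled KO and 220 ± 22.5 in controls at 7 days (SD, n = 5 and 4), and 208 ± 15.5 and 223 ± 5.87 at 14 days (n = 4 and 3). Its log2 fold changes were 0.08 ± 0.12 (adjusted p = 0.62) and -0.13 ± 0.08 (adjusted p = 0.23). With total count scaling both Jup and Pkp2 were called higher at both times, Jup by 0.97 and 0.40 and Pkp2 by 0.50 and 0.24.

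**Figure D2:**
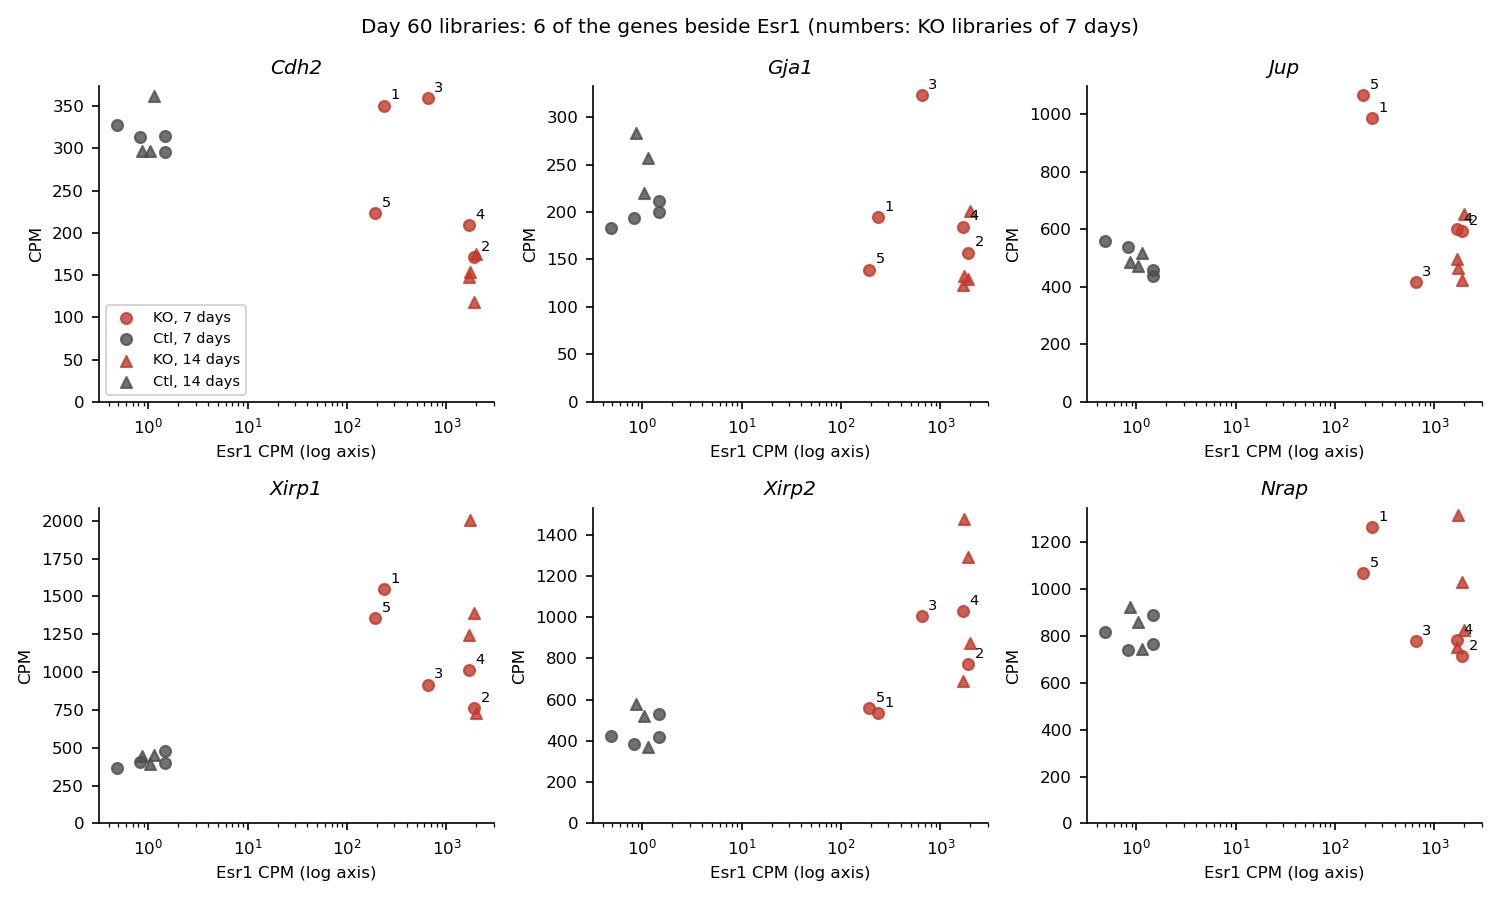
CPM of 6 of the genes (linear axes from 0) in the 16 libraries of day 60 beside the CPM of Esr1 (log axis), with KO in red, controls in grey, circles for 7 days and triangles for 14 days; numbers mark the libraries labelled KO of 7 days. Libraries 1 and 5, with the lowest Esr1 of the libraries labelled KO, hold the highest Jup of all 16 (985 and 1065 CPM) and the lowest Xirp2 of the libraries labelled KO (536 and 560 CPM).

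Libraries 1 and 5 labelled KO of 7 days, which had the lowest Esr1, thus differed from libraries 2, 3 and 4 in some of the genes and not in others. They had the highest Xirp1, Nrap and Jup and the lowest Xirp2 and Dsp of the 5. For Cdh2 and Gja1 library 3 was the highest of the 5. The 4 called genes of 7 days, Xirp1, Xirp2, Des and Dsp, were called with the same sign without these 2 libraries (1.11, 1.08, 1.44 and -0.40).

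A fit of the 16 libraries of day 60 set the response at 14 days against that at 7 days. The largest differences among the 10 genes were those of Cdh2, at -0.84 ± 0.28 (unadjusted p = 0.0090), and Gja1, at -0.80 ± 0.31 (unadjusted p = 0.019), both lower at 14 days relative to controls than at 7 days. Neither was called (adjusted p = 0.30 and 0.38), and nor was Jup, at -0.50 ± 0.33. The remaining 7 genes lay between -0.27 and 0.33. Over all genes, 0 of 15951 genes were called by edgeR (0% of those tested), with 1662 at an unadjusted p under 0.05, 147 called by DESeq2 and 0 by limma-voom. The calls of Cdh2 and Gja1 at 14 days and not at 7 days are therefore not shown to be a difference between the times.

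**Figure D3:**
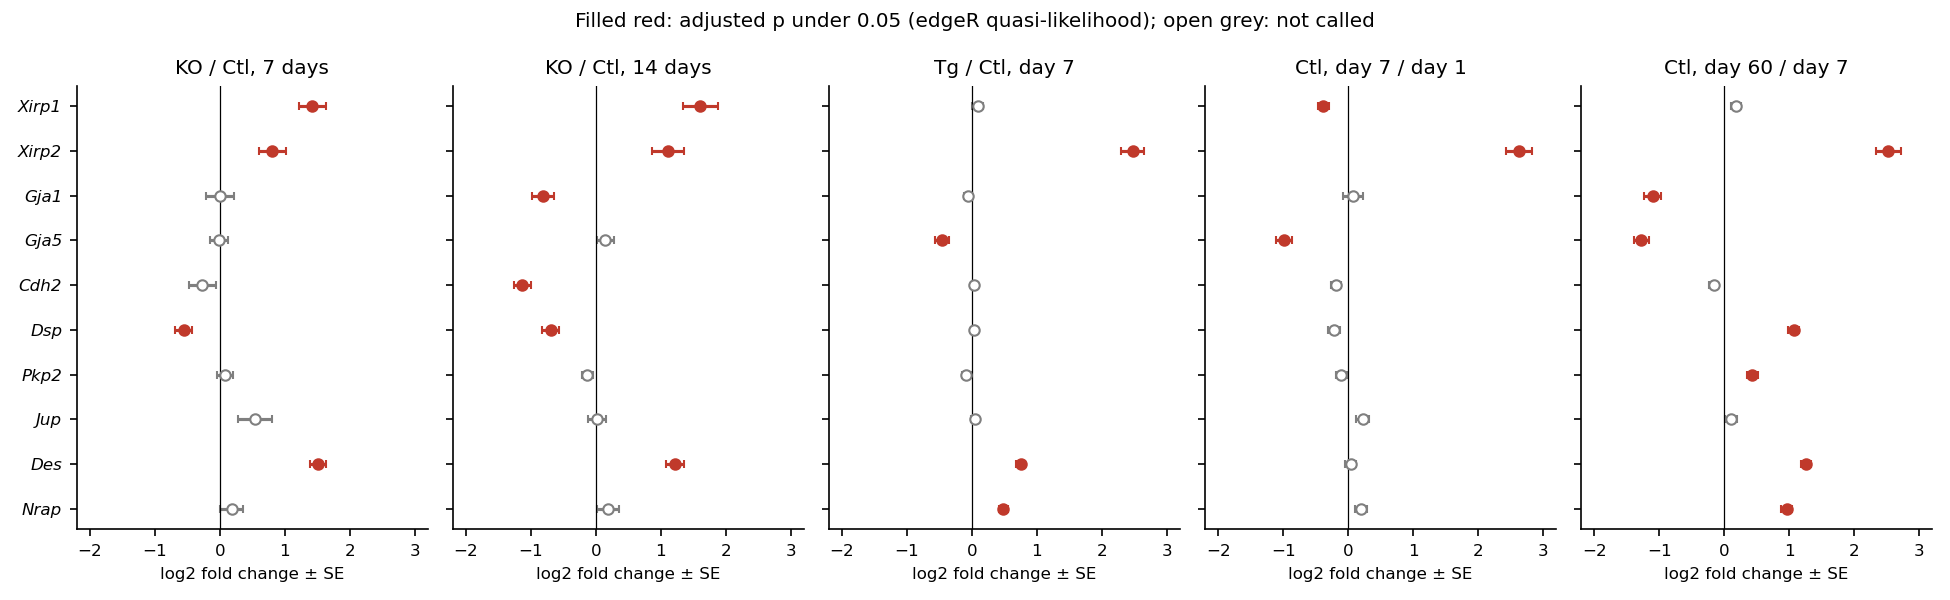
Log2 fold change with its SE for the 10 genes in 5 comparisons (edgeR quasi-likelihood, TMM scaling), with the group named first over the group named after it; filled red points passed an adjusted p under 0.05 and open grey points did not. Des is the gene called higher in KO, Tg and day 60 ventricles alike besides Xirp2, and Dsp and Gja1 point in opposite ways in the comparison of day 60 with day 7.

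In Tg ventricles at postnatal day 7, Xirp2 rose 5.55-fold, Des 1.68-fold and Nrap 1.40-fold, and Gja5 fell to 0.726-fold of controls. The other 6 genes were not called. Of the 10 genes, 3 were thus higher, where 14.9% of all 15893 genes were, and 1 was lower, where 15.8% were. The median log2 fold change of the 10 genes was 0.04.

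Xirp2 stood at 398, 330, 636 and 423 CPM in Tg libraries 1 to 4, against 80.7, 86.3 and 73.5 in the day 7 controls. Every Tg library held more than 3 times the highest control, and the log2 fold change was 2.47 ± 0.17 (adjusted p = 8.1e-07). The Tg values overlapped those of the day 60 controls, 371 to 578 CPM. Des stood at 2224, 1828, 2373 and 1991 CPM in Tg libraries, against 1230, 1233 and 1278 in controls, with a log2 fold change of 0.75 ± 0.07 (adjusted p = 9e-06). The groups lay apart, and the Tg libraries all lay below the day 60 controls, 2750 to 3264 CPM.

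Nrap stood at 637, 518, 585 and 614 CPM in Tg libraries, against 405, 467 and 386 in controls. The groups did not overlap, and the log2 fold change was 0.48 ± 0.07 (adjusted p = 0.00034). It was not called when all 27 libraries shared a single fit (adjusted p = 0.11). Xirp1, the close relative of Xirp2, stood at 472, 365, 349 and 394 CPM in Tg libraries, against 363, 386 and 363, and did not pass the test (0.09 ± 0.08, adjusted p = 0.46).

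Gja5 stood at 15.2, 15.8, 13.6 and 15.5 CPM in Tg libraries, against 16.4, 23.8 and 21.8 in controls. All 4 Tg libraries lay below the controls, control 1 by a small margin, and the log2 fold change was -0.46 ± 0.11 (adjusted p = 0.0055). Beside this, the 12 markers of atrial and conduction muscle without the peptide gene Nppa summed to 206 to 447 CPM in Tg libraries and 368 to 651 in controls. With Nppa, 1 of the 12 was called higher and 4 lower. The 9 markers of arterial endothelium summed to 367 to 381 CPM in Tg libraries and 327 to 352 in controls, with 3 called higher and 0 lower. The part of these cells in the level of Gja5 was not tested. Gja1 stood at 430.1 to 494 CPM in Tg libraries and 447 to 503 in controls (-0.06 ± 0.06, adjusted p = 0.48).

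The cadherin and desmosome genes were not called with the transgene. The log2 fold change was 0.04 ± 0.06 for Cdh2, 0.04 ± 0.05 for Dsp, -0.08 ± 0.06 for Pkp2 and 0.04 ± 0.05 for Jup, and the Tg and control libraries overlapped for each. The smallest adjusted p of the 4 was 0.34 (edgeR). The summed level of the 15 cardiomyocyte markers was 61527 to 68405 CPM in Tg libraries and 63470 to 64553 in controls, with 6 called higher and 4 lower, and 9 of 10 macrophage markers were higher (193 to 252 CPM against 117 to 149.6).

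In control ventricles from birth to adulthood, the 10 genes went separate ways. Xirp2 had the largest increase and Gja5 the largest decrease of the 10, Des, Nrap and Dsp rose between day 7 and day 60, and Gja1 fell over the same time. From day 1 to day 7, 1 of the 10 was called higher, where 12.3% of all 16388 genes were, and 2 were lower, where 11.2% were. From day 7 to day 60, 5 were higher and 2 lower, where 33.3% and 36.0% of all genes were. From day 1 to day 60, all 10 were called, 6 higher and 4 lower, where 35.1% and 38.6% of all genes were. The comparisons share their control libraries, so their counts are not independent of each other.

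Xirp2 stood at 9.33, 10.7, 17.1 and 14.4 CPM at day 1, at 80.7, 86.3 and 73.5 at day 7, and at 371 to 578 in the 7 controls of day 60. The ages did not overlap. The log2 fold change was 2.63 ± 0.20 from day 1 to day 7 (adjusted p = 6.1e-07) and 2.53 ± 0.19 from day 7 to day 60 (adjusted p = 3.3e-08), 35.6-fold over the whole time. Xirp1 took no part in this. It stood at 448 to 520 CPM at day 1, at 363 to 386 at day 7 and at 369 to 477 at day 60, a fall of 0.38 ± 0.09 on the log2 scale from day 1 to day 7 (adjusted p = 0.0063) that was not called when all 27 libraries shared a single fit (adjusted p = 0.27). Its later step of 0.18 ± 0.08 was not called, and without TMM it was -0.42.

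The newborn ventricle thus held far more Xirp1 than Xirp2. Per kilobase of merged exons, which allows levels of different genes to be compared, Xirp1 stood at 82.4 CPM per kb and Xirp2 at 1.08 at day 1, at 63.4 and 6.69 at day 7, and at 70.7 and 36.7 in the 7-day controls of day 60. In Tg libraries of day 7 the levels were 67.7 CPM per kb for Xirp1 and 37.3 for Xirp2. In libraries labelled KO they were 192 and 65.2 CPM per kb at 7 days and 230 and 90.4 at 14 days.

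Gja5 stood at 41.8, 38.7, 38.1 and 44.4 CPM at day 1, at 16.4, 23.8 and 21.8 at day 7, and at 7.23 to 9.98 at day 60. The ages did not overlap, and the log2 fold change was -0.98 ± 0.13 from day 1 to day 7 (adjusted p = 7.3e-05) and -1.28 ± 0.11 from day 7 to day 60 (adjusted p = 1.4e-07). The 12 atrial and conduction markers without Nppa summed to 512 to 922 CPM at day 1, 368 to 651 at day 7 and 189 to 297 and 202 to 256 in the control groups of day 60, and their part in the fall of Gja5 was not tested. Gja1 stood at 293 to 538 CPM at day 1 and 447 to 503 at day 7, with no call between them (0.08 ± 0.15, adjusted p = 0.75), and at 183 to 283 CPM at day 60. Its log2 fold change from day 7 to day 60 was -1.10 ± 0.13 (adjusted p = 3.6e-06). Per kilobase, Gja1 stood above Gja5 at every age, at 43.9 against 7.09 CPM per kb at day 1, 46.5 against 3.59 at day 7 and 19.2 against 1.44 in the 7-day controls of day 60.

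Des stood at 1129 to 1314 CPM at day 1, 1230 to 1278 at day 7 and 2750 to 3264 at day 60, with a log2 fold change of 0.04 ± 0.08 from day 1 to day 7 (adjusted p = 0.77) and 1.26 ± 0.08 from day 7 to day 60 (adjusted p = 2.7e-09). Nrap stood at 334 to 379 CPM at day 1, 386 to 467 at day 7 and 741 to 923 at day 60, with 0.20 ± 0.09 (adjusted p = 0.13) and 0.96 ± 0.09 (adjusted p = 1.4e-07) for these steps. Des and Nrap thus had their called rise in the second step, while Xirp2 rose in both.

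The desmosomal genes followed their own courses. Dsp stood at 576 to 736 CPM at day 1, 559 to 626 at day 7 and 1108 to 1317 at day 60, a rise of 1.07 ± 0.08 from day 7 to day 60 (adjusted p = 3.6e-08). Pkp2 averaged 174 ± 13 CPM at day 1 (SD, n = 4), 163 ± 12.2 at day 7 (n = 3) and 220 ± 22.5 and 223 ± 5.87 in the control groups of day 60 (n = 4 and 3), a rise of 0.44 ± 0.08 from day 7 (adjusted p = 0.00015) that turned to -0.17 with total count scaling, 0.48 above the median of all genes. Jup averaged 390.0 ± 44.5 CPM at day 1, 458 ± 32.9 at day 7 and 497 ± 58.6 and 492 ± 23.6 at day 60. Its rise from day 1 to day 60 was 0.33 ± 0.09 (adjusted p = 0.0030) and turned to -0.33 with total count scaling, 0.38 above the median of all genes. It was not called in the fit of all 27 libraries (adjusted p = 0.091). Cdh2 averaged 399 ± 31.6 CPM at day 1, 352 ± 10.8 at day 7 and 313 ± 13.5 and 319 ± 37.2 at day 60, a fall of 0.35 ± 0.07 from day 1 to day 60 (adjusted p = 0.00023). Under total count scaling, Cdh2, Xirp1, Jup, Pkp2, Gja1 and Gja5 were all called lower for day 60 against day 7, where 10713 of all 16388 genes were.

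The 15 cardiomyocyte markers summed to 50550 to 58987 CPM at day 1, 63470 to 64553 at day 7 and 104943 to 115000 at day 60, and all 15 rose from day 7 to day 60, against 8 higher and 2 lower with total count scaling. Of the 10 markers of activated fibroblasts, 8 fell and 2 rose from day 7 to day 60 (1874 to 2919 CPM at day 1, 2547 to 2648 at day 7, and 408 to 479 and 403 to 624 in the control groups of day 60). The part of these shifts in the age changes of the 10 genes was not tested.

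Set in order over the 7 groups, the genes differ in where they are highest. For Des the order was KO at 7 days, KO at 14 days, the controls of day 60, Tg, the day 7 controls and the day 1 controls, and neighbours overlapped between the KO groups, between the day 60 controls and between the day 7 and day 1 controls. For Gja5 it was day 1, day 7, Tg and then the 4 groups of day 60, which overlapped each other. For Dsp the day 60 controls came first, with no overlap with the KO groups, whose lowest values reached those of day 1. For Pkp2 and Jup each group overlapped its neighbour in the order of means. Per kilobase, Des was the highest in every group, from 322 CPM per kb at day 1 to 2237 in libraries labelled KO at 7 days, and Gja5 was the lowest in all groups but day 1, where Xirp2 was.

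Another 100 genes, of the disc or related to it, were grouped in 6 lists. Besides partners in the disc, the lists hold family relatives and genes of other cell types. Cdh5 and Gja4, for example, are also among the endothelial and arterial markers used here. Genes that are low in a group could pass the filter on low counts only through the group where they are high. The counts of such genes thus have their direction fixed in part. The shares over all genes are those given above, 26.4% higher and 24.3% lower at 7 days, and 21.8% and 22.4% at 14 days. They are 14.9% and 15.8% in Tg, and 33.3% and 36.0% for day 60 against day 7. Under total count scaling, 8065 genes were higher and 1588 lower of 15167 at 7 days, and 7288 and 1610 of 14976 at 14 days. For day 60 against day 7 that scaling gave 2352 higher and 10713 lower of 16388, and in Tg 2081 and 2838 of 15893. Of 20 other connexin and pannexin genes, 7 passed the filter at 7 days, of which 5 were higher and 0 lower in ventricles labelled KO, or 4 higher and 1 lower without libraries 1 and 5 labelled KO. At 14 days, 4 were higher and 1 lower of the 8 that passed, and 7 higher and 0 lower with total count scaling. Panx1, which forms channels to the outside of the cell, stood at 13.4 ± 1.44 CPM in libraries labelled KO and 2.58 ± 0.13 in controls at 7 days (SD, n = 5 and 4), a log2 fold change of 2.36 ± 0.13 (adjusted p = 1.7e-06), and changed by 3.13 ± 0.19 at 14 days. Panx2 changed by 1.82 ± 0.27 at 14 days. Gja3, a connexin best known from the lens, fell at 14 days, by 0.79 ± 0.15, and was not called with total count scaling.

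In Tg ventricles 4 of 7 of these connexin and pannexin genes were lower and 0 higher, where 15.8% of all genes were lower, and from day 7 to day 60 the 7 that passed the filter were all lower, where 36.0% were, under both scalings. Both comparisons rest on the same day 7 controls. Gja3 stood at 13.1 ± 1.90 CPM in Tg libraries and 29.6 ± 0.97 in controls (SD, n = 4 and 3), a log2 fold change of -1.18 ± 0.10, and Gjd3 changed by -1.15 ± 0.22 in Tg libraries, which was not called when all 27 libraries shared a single fit (adjusted p = 0.08). From day 7 to day 60 Gjd3 changed by -2.28 ± 0.25 and Panx1 by -1.68 ± 0.14. Endothelial cells also express connexins, and 10 of their markers summed to 1621 to 1687 CPM in Tg libraries and 1588 to 1621 in controls. In the control groups of day 60 these markers summed to 1126 to 1249 and 1226 to 1256 CPM. From day 7 to day 60, 2 of the 10 were called higher and 6 lower. The part of these cells in the levels of the connexins was not tested.

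Of 13 other genes on the desmosome list, 8 were tested at 7 days. In ventricles labelled KO 2 were higher and 3 lower (median -0.40), not far from the shares over all genes. Under total count scaling 2 were higher and 1 lower. At 14 days 1 was higher and 3 were lower of 7 (median -0.20), and 1 higher and 1 lower under total count scaling. Ppl (periplakin), of the same family of linkers as desmoplakin, stood at 1.56 ± 0.51 CPM in libraries labelled KO and 8.70 ± 0.99 in controls at 7 days (SD, n = 5 and 4), and changed by -2.49 ± 0.22 at 7 days (adjusted p = 1.6e-05) and by -1.94 ± 0.15 at 14 days. Dsc2, a desmosomal cadherin, changed by -0.63 ± 0.11 at 14 days, and Pkp4, a plakophilin of cell junctions, by -0.49 ± 0.11 at 7 days, neither of them called with total count scaling. Tmem43, a nuclear envelope protein tied by mutation to arrhythmogenic cardiomyopathy, changed by 0.94 ± 0.19 at 7 days and 0.49 ± 0.08 at 14 days. In Tg libraries Tmem43 changed by 0.61 ± 0.06. Ppl rose by 3.95 ± 0.32 from day 7 to day 60, the largest change of the list.

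Of 16 other genes of the adherens junction and of the cadherin family, 15 were tested. In ventricles labelled KO, 5 were higher and 3 lower at 7 days (median 0.25) and 7 higher and 3 lower at 14 days (median 0.31), with the counts of 7 days not far from the shares over all genes. Under total count scaling they were 10 higher and 1 lower at 7 days, and 9 higher and 2 lower at 14 days. Ctnna3, the alpha catenin of the disc, changed by -1.21 ± 0.38 at 7 days (adjusted p = 0.022) and -1.36 ± 0.15 at 14 days (adjusted p = 5.6e-05). The call at 7 days was lost with total count scaling and without control 1 of 7 days. Cdh13, a cadherin without a tail inside the cell, changed by -1.20 ± 0.20 and -0.77 ± 0.13, Plekha7, a protein of the adherens junction, by 1.14 ± 0.25 and 1.05 ± 0.32, and Cdh11, a cadherin of fibroblasts and other mesenchymal cells, by 0.99 ± 0.16 at 14 days. The rise of Plekha7 at 14 days was not called without control 5 or 6. In Tg libraries 1 was higher and 4 were lower of 15, where 14.9% and 15.8% of all genes were. From day 7 to day 60, 2 were higher and 9 lower, where 33.3% and 36.0% of all genes were. Plekha7 changed by -4.01 ± 0.18 and Cdh11 by -2.29 ± 0.12 over that time.

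Of 21 scaffold and channel genes of the disc, 6 were higher and 9 lower at 7 days (median -0.41) and 6 higher and 10 lower at 14 days (median -0.33), against 9 and 5 and then 7 and 7 with total count scaling. In ventricles labelled KO, Fgf13, which binds the sodium channel, changed by -1.73 ± 0.33 at 7 days and -2.25 ± 0.11 at 14 days, and Scn4b, a subunit of that channel, by -3.21 ± 0.23 at 14 days. Kcnj2, the channel of the inward rectifier current, stood at 12.1 ± 5.21 CPM in libraries labelled KO and 40.1 ± 5.38 in controls at 7 days (-1.75 ± 0.28, adjusted p = 0.00054). Lgals3 (galectin 3), also a marker of macrophages, whose markers were higher in libraries labelled KO as given above, changed by 4.20 ± 0.43 and 3.70 ± 0.49.

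In Tg ventricles 3 of these 21 genes were higher and 13 lower (median -0.27), also with total count scaling, where 15.8% of all genes were lower. Kcnj2 changed by -1.13 ± 0.10 and Cxadr, a cell adhesion receptor of the disc, by -0.76 ± 0.08. From day 7 to day 60, 15 were higher and 4 lower (median 0.50), where 33.3% and 36.0% of all genes were. With total count scaling this turned to 6 and 9. Tjp1, a scaffold beside the gap junction, fell by 0.70 ± 0.07 over that time. Scn4b stood at 58.6 ± 12.8 and 41.2 ± 2.20 CPM in the control groups of day 60 and at 0.49 ± 0.19 at day 7 (SD, n = 3), a log2 fold change of 6.64 ± 0.33.

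Of 14 partners of Des in the intermediate filament system, 13 were tested at 7 days, with 8 higher and 3 lower in ventricles labelled KO (median 0.79), where 26.4% and 24.3% of all genes were. At 14 days 7 were higher and 5 lower of 14 (median 0.40), where 21.8% and 22.4% were. Under total count scaling the counts were 8 higher and 0 lower at 7 days, and 9 higher and 2 lower at 14 days. The keratin pair Krt8 and Krt18, filaments of epithelia that are also known from stressed heart muscle cells, were low in day 60 controls. Krt18 stood at 37.6 ± 17.7 CPM in libraries labelled KO and 0.83 ± 0.26 in controls at 7 days (SD, n = 5 and 4) and at 34.8 ± 9.16 and 0.65 ± 0.13 at 14 days (n = 4 and 3). Its log2 fold change was 5.48 ± 0.53 and 5.69 ± 0.28. Krt8 was called higher at both times, with 8.20 ± 6.27 CPM in libraries labelled KO and 0.16 ± 0.09 in controls at 7 days and 4.66 ± 1.30 and 0.13 ± 0.12 at 14 days, the control values resting on a few counts each. Both keratins are also among 8 markers of mesothelium and epicardium, and the other 6 summed to 5.92 to 12.8 CPM in libraries labelled KO and 5.25 to 10.4 in controls at 7 days, and to 8.40 to 26.1 CPM in libraries labelled KO and 9.55 to 10.9 in controls at 14 days. Dmd (dystrophin) changed by -1.40 ± 0.11 at 14 days and Pgm5, a protein of cell junctions in muscle, by -0.69 ± 0.17 at 7 days and -0.69 ± 0.08 at 14 days. Pgm5 was not called at 7 days under total count scaling (-0.26, adjusted p = 0.21).

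In Tg ventricles 8 of 14 intermediate filament partners were higher and 1 lower (median 0.27), also with total count scaling, where 14.9% of all genes were higher. Krt18 stood at 22.2 ± 10.4 CPM in Tg libraries and 4.45 ± 1.10 in controls (SD, n = 4 and 3), a log2 fold change of 2.31 ± 0.31, and Krt8 changed by 2.12 ± 0.23. The 6 other mesothelial and epicardial markers summed to 19.7 to 25 CPM in Tg libraries and 17.6 to 21.4 in controls. From day 7 to day 60 Krt18 fell by 2.59 ± 0.29, and Cryab, the chaperone of desmin, rose by 1.79 ± 0.09. Des itself was called higher in KO, in Tg and at day 60, so that the keratins moved with it in KO and Tg ventricles and against it with age.

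**Figure D4:**
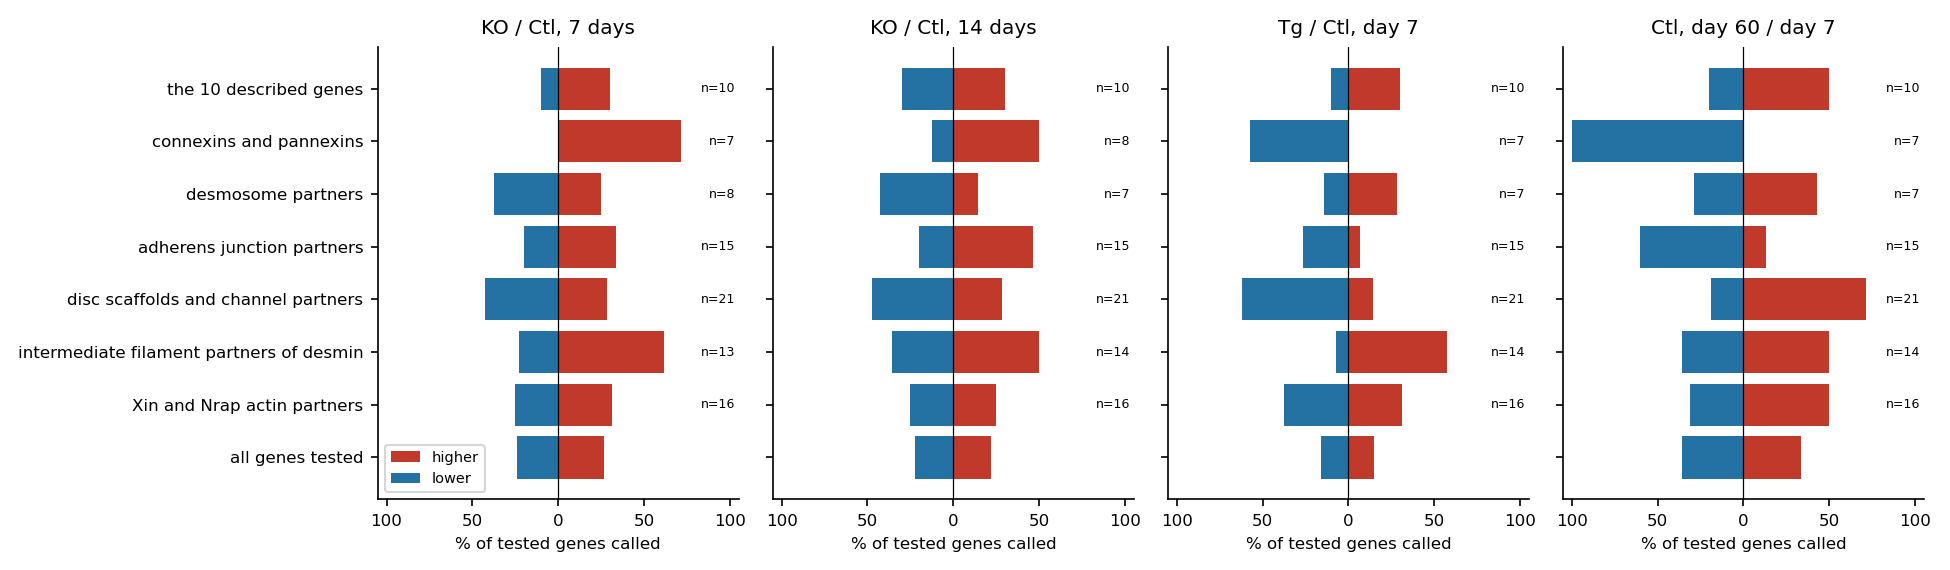
Share of tested genes called higher (red, right of 0) and lower (blue, left of 0) in 4 comparisons with TMM scaling. Rows are the 10 genes, the 6 lists of other disc and related genes and all genes tested, and n is the number tested. Of 21 scaffold and channel genes, 13 are lower and 3 higher in Tg libraries, where 15.8% and 14.9% of all genes are.

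Of 16 actin-binding partners of the Xin proteins and Nrap, all were tested. In ventricles labelled KO, 5 were higher and 4 lower at 7 days (median 0.05) and 4 higher and 4 lower at 14 days (median -0.11), near the shares over all genes at both times. Under total count scaling they were 9 higher and 1 lower at 7 days, and 8 higher and 2 lower at 14 days. Flnc (filamin C), which binds Xirp1, stood at 2126 ± 1226 CPM in libraries labelled KO and 443 ± 34.7 in controls at 7 days (SD, n = 5 and 4), a log2 fold change of 2.25 ± 0.39 (adjusted p = 0.00084), and changed by 1.49 ± 0.12 at 14 days. Klhl40, which stabilises thin filament proteins in muscle, changed by 2.06 ± 0.41 and 2.16 ± 0.23. Ablim1 changed by -1.01 ± 0.22 and -0.99 ± 0.11, Neb (nebulin) by -1.01 ± 0.29 at 7 days, and Nebl (nebulette), its cardiac relative, by -0.80 ± 0.10 at 14 days. The call of Neb was lost with total count scaling and without control 4.

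In Tg ventricles 5 of these 16 genes were higher and 6 lower, where 14.9% and 15.8% of all genes were. Tln2 (talin 2) changed by -0.55 ± 0.06, and Klhl40 by 0.36 ± 0.09, which was not called when all 27 libraries shared a single fit. From day 7 to day 60, 8 were higher and 5 lower, where 33.3% and 36.0% of all genes were. With total count scaling 3 were higher and 10 lower. Csrp3, a mechanosensing protein of the Z-disc, rose by 1.16 ± 0.09 on the log2 scale, while Vasp and Evl, which promote actin assembly, changed by -1.39 ± 0.07 and -1.53 ± 0.12.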

How the data were processed

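Ventricular RNA of 27 mouse samples in 7 groups was sequenced after TRIzol and RNeasy extraction, per the labels' protocols. The deposited table holds whole-number counts per Ensembl gene, not normalized. The submitters' processing notes name STAR, featureCounts, Salmon, DESeq2, GRCm38 and mm10 without role or order, and the strand setting is not given in the sources used here. Total counts ran from 21929347 to 25675115, and 0 columns of sample values were left out. Gene identifiers were matched to GENCODE M21 (55227 matched, 260 not), from which positions and merged exon lengths were taken.

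Each comparison was tested with edgeR 4.0.16 in R 4.3.3 (filterByExpr, TMM, quasi-likelihood F test, Benjamini-Hochberg adjustment over all genes tested, threshold 0.05). Simulated counts, with the same spread set for every gene, were tested first for some of the comparisons. These were KO at 7 days, KO at 14 days, Tg, and day 60 against day 1. The fits at 7 days, at 14 days and of Tg each used their own libraries, the difference of the KO responses used the 16 libraries of day 60, and the 3 age comparisons used the controls of all ages. SE is the log2 fold change divided by the square root of F. The 10 genes, the 6 lists of other disc and related genes and the 10 marker lists were chosen with earlier results of these data known. Of each disc list, up to 2 called genes per direction with the largest change and a mean of at least 1 CPM are named, and some of them are not reported here. Alternatives were DESeq2 1.42.0, limma-voom 3.58.1, RLE size factors, total count scaling, no filter on low counts, all 27 libraries in a single fit, the replicate number as a block, leaving out libraries 1 and 5 labelled KO at 7 days, and leaving out each library in turn. The block used only libraries whose number is shared by the groups compared. No 2 libraries of a group agreed within sampling noise (chi-square per degree of freedom 6.34 to 146.6 over 40 pairs).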

Additional observations from a re-analysis of the deposited data

Results flagged for a closer look

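Gja1 in library 8 labelled KO at 14 days stood at 201.3 CPM, apart from the other 3 libraries of its group, which lay between 123 and 133 CPM. The gap was 0.871 of the range of the group, above the 0.829 that Dixon's test allows for 4 values. Of 50 checks of a gene in a group, this was the 1 that passed, where chance gives about 1 in 20. The same library had the highest Cdh2, Dsp, Pkp2 and Jup and the lowest Xirp1 of its group. Without it the log2 fold change of Gja1 was -1.01 in place of -0.82.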

How the results depend on the processing

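Under DESeq2, RLE size factors, limma-voom or no filter on low counts, 68 of the 70 values of the 10 genes (10 genes in 7 comparisons) kept their direction and their side of the threshold under each setting, as did 65 with all 27 libraries in a single fit, 66 with the replicate block and 49 with total count scaling. Leaving out 1 library at a time kept 782 of 810. The log2 fold change of Gja1 at 7 days after knockout was 0.002 and turned to -0.006 under DESeq2 and under RLE size factors, -0.059 under limma-voom and -0.011 with no filter, and ran from -0.235 to 0.118 with 1 library left out. With libraries 1 and 5 labelled KO left out, Gja5 turned to 0.020, Pkp2 to -0.025 and Nrap to -0.093 at 7 days. Total count scaling called 7 of the 10 genes at 7 days in place of 4, and turned Gja5 to 0.407 and Cdh2 to 0.155 at 7 days, Pkp2 to 0.241 at 14 days, Nrap to -0.048 in the difference between the times, and Des to -0.016 for day 7 against day 1. For day 60 against day 7 it turned Xirp1 to -0.423, Pkp2 to -0.168, Jup to -0.499 and Cdh13 to -0.001, and for day 60 against day 1 it turned Pkp2 to -0.327 and Jup to -0.328. It put the share of higher calls at 83.5% at 7 days, 81.9% at 14 days, 42.3% in Tg, 41.0% for day 7 against day 1, 18% for day 60 against day 7 and 19.3% for day 60 against day 1, where TMM gave 52.0%, 49.4%, 48.6%, 52.4%, 48.1% and 47.6%. With 1 library left out, values that crossed 0 ran from -0.076 to 0.078 for Gja5 and -0.001 to 0.162 for Pkp2 at 7 days, from -0.122 to 0.104 for Jup at 14 days, from -0.051 to 0.413 for Xirp1 and -0.150 to 0.169 for Nrap in the difference between the times, from -0.006 to 0.147 for Xirp1 and -0.001 to 0.082 for Cdh2 in Tg, and from -0.085 to 0.174 for Gja1 for day 7 against day 1. The count of genes called in the difference between the times, 0, was 147 under DESeq2, 52 with all 27 libraries in a single fit, 3 without libraries 1 and 5, 13 with no filter, 2 with total count scaling, and 0 to 21 with 1 library left out (21 without library 2 labelled KO at 7 days). In Tg it was 973 with all 27 libraries in a single fit, in place of 4878. In Control day 7 against day 1 it was 3844, and 2508 to 4492 with 1 library left out (2508 without control 2 and 2536 without control 1 of day 7). The fall of Xirp1 from day 1 to day 60 was not called without control 2 of day 1, without control 5 of day 60, with the replicate block or in the fit of all 27 libraries. The causes of these changes were not tested.

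Deviations of same-numbered libraries from their group means had correlations between -0.508 and 0.261 over 19 pairs, so a pairing by number was not shown. The groups are small and the pairs share libraries, so this check is a weak one. The block fits kept only libraries whose number is shared by the groups compared. At 14 days these were libraries 6 and 7 of each group, and the day 60 controls of the age comparisons were those of 7 days only. Their values and counts thus differ from the main fits in the libraries used as well as in the block. With the replicate block, Jup at 14 days was -0.204 in place of 0.021, Nrap at 14 days was called at 0.467 (adjusted p = 0.012, edgeR) in place of 0.190 (0.41), and Cdh2 for day 60 against day 7 was called at -0.179 (adjusted p = 0.035) in place of -0.163 (0.06). The block called 1624 genes for day 7 against day 1 in place of 3844, 6589 at 7 days, 6163 at 14 days, 0 in the difference, 3830 in Tg, 10705 for day 60 against day 7 and 10092 for day 60 against day 1.

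Depth limits Gja5 most, with 120 to 1353 counts per library. Antisense overlap with protein-coding genes touches the exons of Gja5 and Nrap. Dsp, Des and Xirp2 share 499, 220 and 168 exon bases with other genes on the opposite strand, which had at most 17, 20 and 8 counts per library. Groups of 3 to 5 libraries with a wide spread at 7 days limit the precision for Gja1, Cdh2 and Jup.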
